A study of Drosophila melanogaster with 24 samples.

Results

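Lines of Drosophila melanogaster selected for longevity were compared directly with lines selected for desiccation resistance, in whole adult females. The comparison used 6 of the 24 arrays of the study, 3 longevity selected and 3 desiccation selected lines with 1 array per line, and no control array entered the difference. Each array was made from RNA of flies homogenised by the vial, 10 females per vial, with 5 micrograms of total RNA primed by oligo-dT and labelled with biotin, per the labels' protocols. The other 18 arrays came from 3 lines each of heat selected, constant 30 (described as flies held at 30 degrees), cold selected, knock-down selected, starvation selected and unselected control flies, and they served to estimate the spread of each probe set and to show where the levels of the 6 arrays lay. Lines are biological replicates per the labels, so each p-value is set against the spread from line to line. The sources used here do not give the strain, the age of the females, the number of generations of selection or whether any fly was stressed before sampling. Probe sets were chosen by level alone: of 13966 probe sets that are not the array maker's controls, the 9023 with a log2 value above 4 on at least 3 of the 24 arrays, in whichever group, were tested. They named 7438 different genes.

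Desiccation resistance in flies is known to rest on how much water the body holds, how fast it is lost through the cuticle and the excretory system, and how much can be lost before death. The Malpighian tubules, the renal organs of insects, move water and ions through pumps and channels under the control of diuretic and antidiuretic peptide hormones, and hydrocarbons made by the oenocytes waterproof the cuticle. Life span in flies is known to respond to reduced signalling through the insulin receptor and the target of rapamycin (TOR) kinase, and selection for late reproduction is known to produce long-lived lines that can also resist starvation and desiccation. The comparison therefore sets 2 selected traits that are often linked against each other.

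Few transcripts separated the females of the 2 regimes beyond the spread between lines. Of 9023 probe sets, 1 was called at an adjusted p under 0.05 in limma, which is 0.0111% of those tested. This probe set, of egh (egghead, a glycosyltransferase that builds the sugar chains of glycosphingolipids), was higher in longevity than in desiccation selected females by 0.51 on the log2 scale, and no probe set was called lower. With the 6 arrays fitted alone the adjusted p of egh was 0.746 and no probe set was called. At an unadjusted p under 0.05 there were 356 probe sets (3.95%), 163 of them higher (1.81%) and 193 lower (2.14%) in longevity selected females. The smallest adjusted p was 0.00167, the second 0.143 and the third 0.602.

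Array medians over all 24 arrays lay between 5.46 and 5.58, and the number of probe sets above 4 on an array was 8587 to 8764 in longevity selected and 8633 to 8679 in desiccation selected females. Correlations of a longevity array with a desiccation array ran from 0.992 to 0.996, and those of 2 arrays of the same group from 0.986 to 0.995 over the 8 groups. The signal at the 3' end of actin and Gapdh minus that at the 5' end, a sign of RNA integrity, was 1.46 ± 0.02 in longevity selected and 1.35 ± 0.08 in desiccation selected females on the log2 scale (SD, n = 3 each), with an exact two-sided permutation p of 0.2, where 3 against 3 arrays cannot give less than 0.1. Array weights estimated by limma, lower for arrays that fit their group less well, were 0.81 to 1.16 in longevity and 1.03 to 1.94 in desiccation selected females, and 0.43 to 3.06 over the 24 arrays. The part of RNA integrity in the results below was not tested. The yolk protein genes Yp1, Yp2 and Yp3, made by adult females, had log2 values of 13.7 to 14.8 in longevity selected females. They read 13.8 to 14.8 in desiccation selected females. A set of 9 testis markers was below 4 on all 6 arrays, highest at 3.70 in both groups. In a longer list of 14 testis markers 1 gene was tested, and it was bright. It read up to 9.35 in longevity selected and 9.20 in desiccation selected females, with a difference of -0.03 and no call. Of 9 male accessory gland markers, 8 were below 4 on all 6 arrays, and Acp26Aa reached 4.14.

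The precision of these arrays is described by standard errors and 95% confidence intervals, taken for each probe set alone. The intervals are not adjusted for the number of probe sets tested. They therefore do not bound how large a difference could have gone uncalled, since calls rest on the adjusted p. The median standard error of a difference was 0.10, the median distance from a difference to either end of its 95% confidence interval 0.203, and the median absolute difference 0.06, all on the log2 scale. The interval lay within -1 and 1 for 8865 probe sets (98.2%), and within -0.5 and 0.5 for 8041 (89.1%). For 158 probe sets the interval reached beyond -1 or 1. A difference of 1 or more was measured for 15 probe sets, 4 of them higher and 11 lower in longevity selected females, and none of them was called.

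All 3 longevity arrays lay above all 3 desiccation arrays for 426 probe sets (4.72%) and below them for 452 (5.01%), 878 (9.73%) in all. Set beside the 28 pairs that the 8 groups form, the pair of longevity and desiccation was among the less different. Counts of probe sets at an unadjusted p under 0.05 ran from 209 to 2417 over the pairs, and 23 pairs had more and 4 fewer than longevity against desiccation. The highest counts were in pairs with heat selected females. Among the other pairs the highest was 939, in control against knock-down selected females. Over the 28 pairs, 15 had no called probe set and the most called in any pair was 379, in heat against longevity selected females. The median absolute difference ran from 0.05 to 0.13, and 5 pairs had a smaller one.

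**Figure D1:**
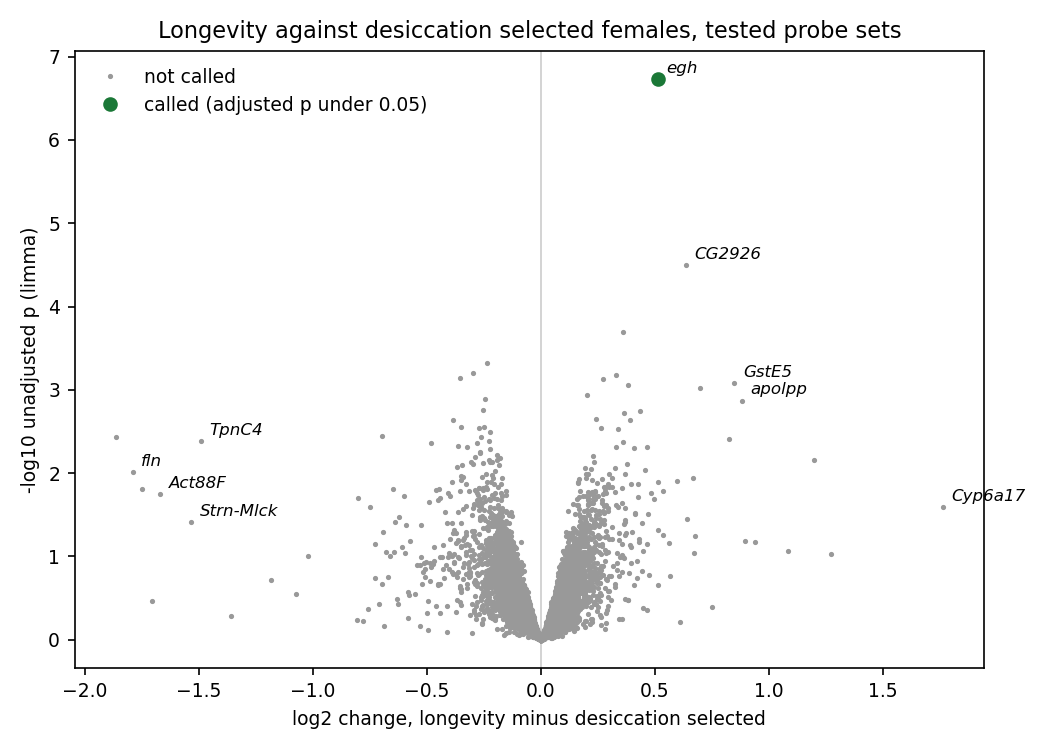
Difference of each of the 9023 tested probe sets between longevity and desiccation selected females (x axis, log2, positive where longevity is higher) against -log10 of the unadjusted limma p (y axis). The green point is egh, the 1 called probe set, and the probe sets on the far left include TpnC4, fln, Act88F and Strn-Mlck, which were not called.

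The egh probe set had log2 values of 10.14, 10.13 and 10.14 in the longevity arrays, against 9.72, 9.66 and 9.50 in the desiccation arrays. The groups did not overlap, and the 3 longevity lines stood within 0.01 of their mean of 10.14 (SD 0.01) while the desiccation lines averaged 9.63 ± 0.11 (SD, n = 3). The difference was 0.51 ± 0.07 (SE; 95% confidence interval 0.38 to 0.65; limma adjusted p = 0.00167), and with the spread taken from the 6 arrays alone it was not called (adjusted p = 0.746). The desiccation arrays were the ones that stood apart: all 3 were below the other 21 arrays of the study, which ranged from 9.83 to 10.20. Relative to the mean of the other 6 groups, desiccation selected females differed by -0.42 ± 0.05 (adjusted p = 0.000529), and longevity selected females differed from that mean by 0.09 (adjusted p = 0.754). The nearest group mean was that of starvation selected females, at 9.88, while control females averaged 10.14. The starvation arrays, at 9.83 to 9.92, also lay below all arrays of the groups other than desiccation (lowest 9.97). Between starvation and desiccation selected females no probe set was called.

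A second egh probe set did not show this difference. It read 8.94, 8.50 and 8.87 in longevity selected females, against 8.75, 8.67 and 8.75 in desiccation selected females, with a difference of 0.05 (95% confidence interval -0.38 to 0.47). The called probe set has an identifier ending in _s_at, which the array maker gives to probe sets whose probes can match more than one transcript.

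CG2926 had the second smallest p. Its probe set, also an _s_at one, read 9.45, 9.33 and 9.19 in longevity selected females, against 8.97, 8.72 and 8.37 in desiccation selected females, without overlap. The difference of 0.64 ± 0.12 (SE; 95% confidence interval 0.39 to 0.89) missed the threshold at a limma adjusted p of 0.143. It was called in 2 of 14 alternative settings, among them without desiccation replicate 1 (0.78, adjusted p = 0.00914). With the 6 arrays fitted alone its adjusted p was 0.952, and without desiccation replicate 3 it was 0.563. Against the mean of the other 6 groups, desiccation selected females fell by 0.69 on the log2 scale (adjusted p = 0.00147), and longevity selected females differed by -0.05. Starvation selected females were again nearest to the desiccation lines, and 2 of the 3 desiccation arrays lay below all 18 arrays of the other 6 groups. The other CG2926 probe set read 9.89, 9.80 and 9.70 in longevity selected and 9.88, 9.87 and 9.76 in desiccation selected females (difference -0.04, 95% confidence interval -0.21 to 0.13).

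**Figure D2:**
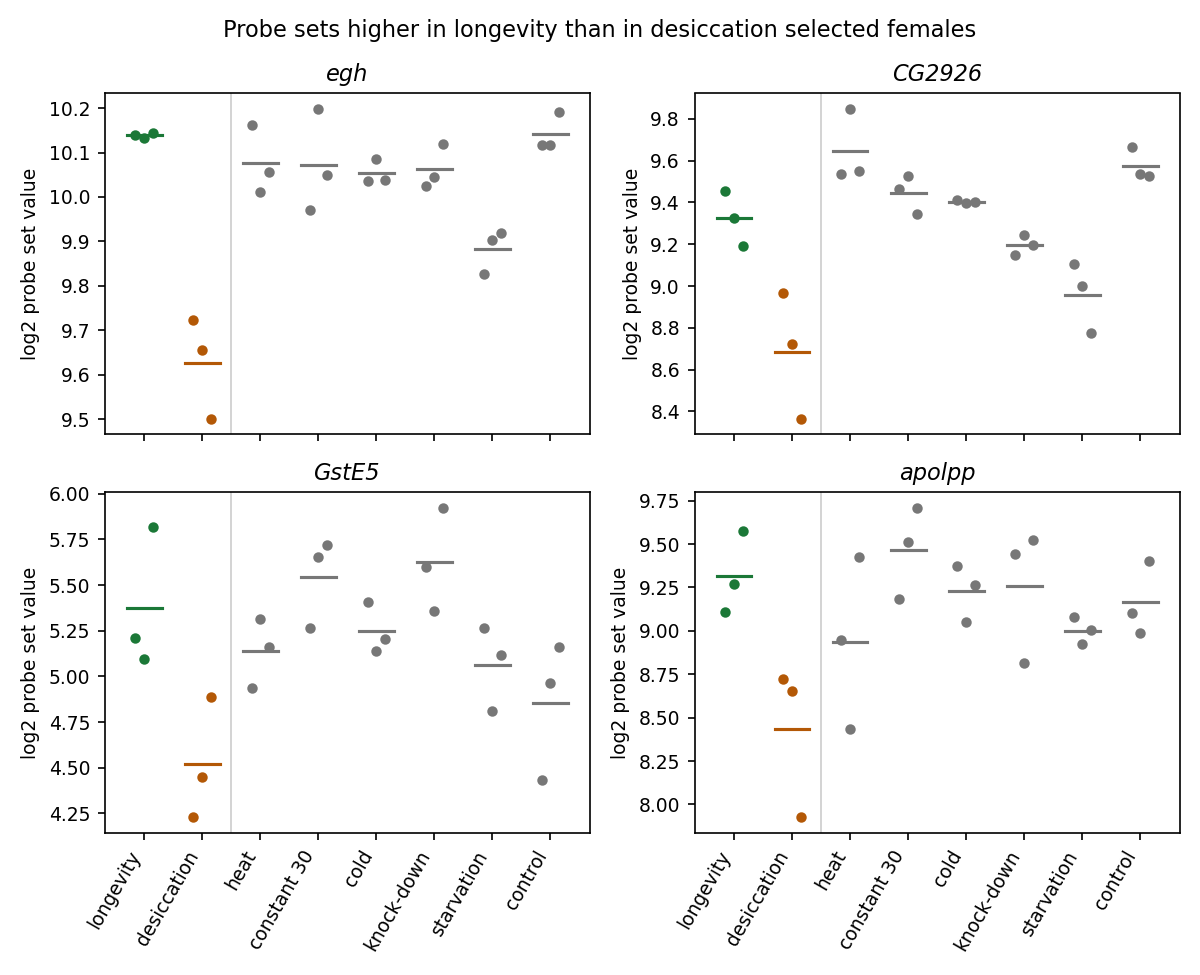
Log2 values of the egh, CG2926, GstE5 and apolpp probe sets on all 24 arrays, 1 point per array and a line at each group's mean, with longevity and desiccation at the left of each panel. The 3 desiccation arrays of egh, at 9.50 to 9.72, lie below all other arrays, and GstE5 and apolpp were not called.

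Against the mean of the other 6 groups, no probe set was called for longevity selected females (smallest adjusted p 0.205, with 633 probe sets, 7.02%, under 0.05 before adjustment). For desiccation selected females 2 were called (0.0222%), both lower, and they were egh and CG2926, with 629 at an unadjusted p under 0.05 (6.97%). This count depended on the setting: it was 36 with array weights, 6 of them higher and 30 lower, and 6 with quantile normalization. Both comparisons share the 18 arrays of the other 6 groups. Each also reuses the arrays of its regime from the direct comparison, so the calls of egh and CG2926 are not separate evidence.

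The remaining probe sets named here were not called, and are those of smallest p among genes whose groups did not overlap and whose means differed by at least 0.5. Those named as higher in longevity selected females include genes of enzymes that process foreign compounds. GstE5, a glutathione S-transferase of the epsilon class, read 5.21, 5.09 and 5.82 in longevity selected females, against 4.23, 4.45 and 4.89 in desiccation selected females (difference 0.85 ± 0.22 SE, adjusted p = 0.778). The cytochrome P450 gene Cyp6a17 read 5.50, 5.40 and 6.40, against 3.49, 4.77 and 3.76 (1.76 ± 0.73, adjusted p = 0.999), with a 95% confidence interval of 0.24 to 3.29. Cyp12d1-d, a P450 gene of the mitochondrial class, read 11.09, 10.48 and 10.37 in longevity selected females, against 10.20, 10.30 and 9.83 in desiccation selected females (0.54 ± 0.26), and the difference was 0.31 without longevity replicate 1.

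Both signs were measured in the detoxification families. With each gene counted once, by its brightest probe set, 1 of the 7438 tested genes was called (0.0134%), and an unadjusted p under 0.05 was reached by 1.61% as higher and 2.11% as lower. Of 26 tested glutathione S-transferase genes, 11 were higher and 15 lower in longevity selected females, with a median difference of -0.03 (0.02 without desiccation replicate 3), and none was called. GstE3 stood beside GstE5 at 0.83 ± 0.25, with 7.65, 7.92 and 8.44 in longevity selected and 6.69, 6.85 and 7.99 in desiccation selected females, which overlap, and it was called without desiccation replicate 3 (1.23, adjusted p = 0.0275). GstD9 and GstS1 leaned the other way at -0.34 ± 0.14 and -0.24 ± 0.13. Of 58 cytochrome P450 genes, 23 were higher and 35 lower, with a median of -0.02. Cyp6a23 read 7.77, 7.03 and 6.86 in longevity selected females, against 7.91, 7.72 and 7.97 in desiccation selected females (-0.65 ± 0.24), and Cyp305a1 differed by -0.39 ± 0.14. The 16 UDP-glycosyltransferase genes had a median of 0.00, with Ugt37A2 at -0.46 ± 0.17 and Ugt35C1 at 0.42 ± 0.25.

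A probe set of apolpp, which encodes the apolipophorins that carry lipid through the hemolymph, read 9.11, 9.27 and 9.57 in longevity selected females, against 8.72, 8.65 and 7.93 in desiccation selected females (0.88 ± 0.24, adjusted p = 0.867). The groups did not overlap, but the third desiccation line stood well below its group. The other, brighter apolpp probe set differed by 0.07 (95% confidence interval -0.20 to 0.34), with 11.21, 11.16 and 11.47 against 11.12, 11.22 and 11.29. The 27 tested genes of fat synthesis, storage and transport split 14 higher to 13 lower, with a median of 0.01, and Lsd-1, a perilipin of the lipid droplet surface, differed by -0.16 ± 0.14.

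Further probe sets higher in longevity selected females were of several functions. Gal, a beta-galactosidase, read 7.75, 6.94 and 6.77 in longevity selected females, against 6.77, 6.25 and 6.53 in desiccation selected females (0.64 ± 0.28), and the difference was 0.34 without longevity replicate 1. CG12708 differed by 0.60 ± 0.22. NaCP60E, a voltage-gated sodium channel, read 3.49 to 3.66 in longevity and 2.73 to 3.33 in desiccation selected females (0.54 ± 0.20), below 4 on all 6 arrays. Over the 10 probe sets named as higher, desiccation selected females had the lowest of the 8 group means in 9 and longevity selected females the highest in 3, which describes probe sets chosen for this difference.

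Of the 10 probe sets named as lower in longevity than in desiccation selected females, 4 were of muscle genes, and they were chosen by their p in this comparison. Indirect flight muscle, which powers the wings through stretch activation, uses its own forms of several sarcomere proteins. TpnC4, the troponin C form of this muscle, read 7.01, 8.0 and 7.67 in longevity selected females, against 8.51, 9.07 and 9.59 in desiccation selected females (-1.49 ± 0.46 SE, 95% confidence interval -2.45 to -0.53, adjusted p = 0.999). The gene fln (flightin, a thick filament protein of flight muscle) read 6.57, 7.72 and 6.96, against 8.17, 8.98 and 9.47 (-1.79 ± 0.62). Act88F, the actin of flight muscle, read 8.23, 9.65 and 9.63 in longevity selected females, against 10.06, 11.09 and 11.37 in desiccation selected females (-1.67 ± 0.65). Strn-Mlck, a large titin-related muscle protein, read 3.81, 4.89 and 4.19, against 4.94, 6.34 and 6.22 (-1.53 ± 0.69), while its other probe set differed by 0.09 (95% confidence interval -0.11 to 0.28).

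Each of these 4 probe sets was separated between the groups, which the rule for naming required, and each had a wide spread over the study. In Act88F the other 18 arrays ranged from 8.36 to 12.36, which spans all but 1 of the 6 arrays. For TpnC4 the group means were 7.56 in longevity and 9.05 in desiccation selected females, with heat selected females highest at 9.38 and control females at 8.53. For fln they were 7.08 and 8.87, with heat selected females at 9.65, constant 30 at 7.25 and control at 8.22. Longevity replicate 1 was the lowest of the 6 arrays in all 4, and desiccation replicate 1 was the lowest of its group. Replicate 1 was also the lowest of its group in constant 30, knock-down and starvation selected females for all 4. In control females it was the lowest for fln, Act88F and Strn-Mlck, and in heat and cold selected females for none. In Act88F replicate 1 read 8.36 in constant 30, 8.50 in knock-down, 9.69 in starvation and 9.62 in control females. The part of replicate number in these differences was not tested. In whole females, fewer cells of a type and less RNA per cell cannot be told apart.

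**Figure D3:**
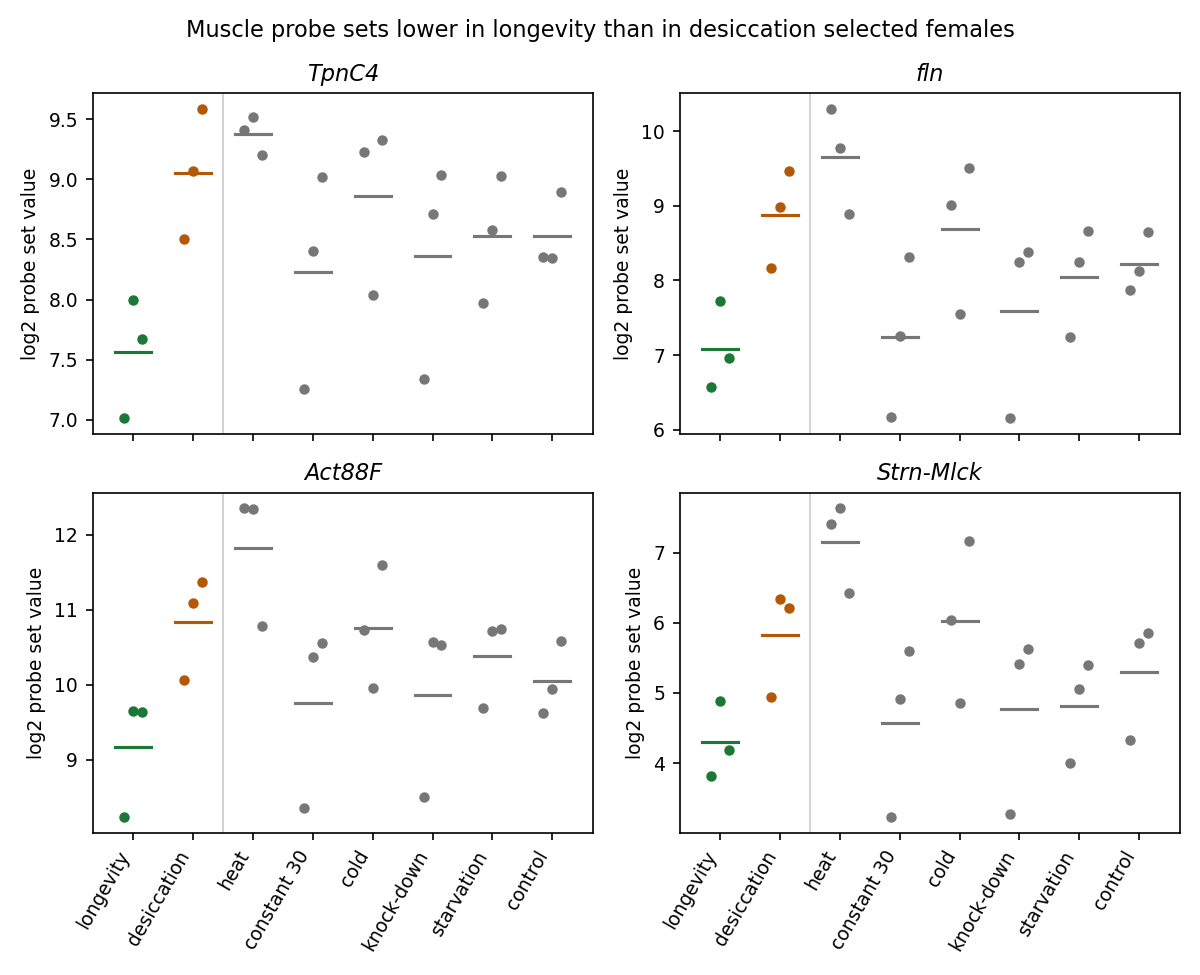
Log2 values of the TpnC4, fln, Act88F and Strn-Mlck probe sets on all 24 arrays, 1 point per array with a line at each group's mean, and longevity and desiccation at the left. All 3 longevity points lie below all 3 desiccation points in each panel, which the rule for naming required. The range of the other groups covers both for fln and Strn-Mlck. For Act88F (8.36 to 12.36) longevity replicate 1 lies below it. For TpnC4 (7.26 to 9.52) longevity replicate 1 lies below it and desiccation replicate 3 above it.

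Over the whole muscle list the differences were mixed. Of 25 tested muscle genes, 14 were lower and 11 higher in longevity selected females, with a median of -0.02, against a median of 0.00 over all 7438 tested genes. The muscle median ran from -0.08 without longevity replicate 3 to 0.02 without longevity replicate 1. Mlp60A, a muscle LIM protein, differed by -1.86 ± 0.57 (adjusted p = 0.999), with 4.16, 5.23 and 4.36 in longevity selected females and 5.16, 7.01 and 7.17 in desiccation selected females, which overlap. Apart from Mlp60A, TpnC4, fln and Act88F, differences lay between -0.35 and 0.23. The mean of the 25 genes on an array was 8.66, 8.89 and 9.0 in longevity and 8.88, 9.21 and 9.31 in desiccation selected females.

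Of the 43 gene lists with 3 or more tested genes, those of oxidative phosphorylation and the tricarboxylic acid cycle had the medians farthest from 0. Of 57 tested genes of oxidative phosphorylation, the respiratory chain and its ATP synthase, 52 were lower in longevity selected females and 5 higher, with a median of -0.16, where 50.2% of all tested genes were lower. None was called, and 3 had an unadjusted p under 0.05, all lower. In 10 of the 57, every longevity array was below every desiccation array, against 5.01% of all genes, and in none was every longevity array above, against 4.52% of all genes. COX5A, a subunit of cytochrome c oxidase, read 10.95, 11.15 and 11.19 in longevity selected females, against 11.25, 11.30 and 11.56 in desiccation selected females (-0.27 ± 0.11, 95% confidence interval -0.50 to -0.05, adjusted p = 0.999). The complex I subunits ND-51, ND-ASHI and ND-B14 differed by -0.29 ± 0.12, -0.27 ± 0.12 and -0.33 ± 0.16.

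Averaged over the 57 genes, the arrays read 9.65, 9.89 and 9.86 in longevity selected and 9.87, 9.90 and 10.08 in desiccation selected females, and the other 18 arrays 9.79 to 10.33. One array of each group stood apart from its fellows, longevity replicate 1 below and desiccation replicate 3 above, and the other 4 lay within 9.86 to 9.90. Without longevity replicate 1 the median difference was -0.08, and over the alternative settings it ran from -0.20 to -0.08. Relative to the mean of the other 6 groups, the list's median was -0.19 in longevity and -0.04 in desiccation selected females.

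The tricarboxylic acid cycle, which feeds electrons to the respiratory chain, leaned the same way. Of its 15 tested genes, 13 were lower and 2 higher, with a median of -0.14 and no call. Mitochondrial aconitase, mAcon1, read 11.52, 11.69 and 11.62 in longevity selected females, against 11.85, 11.91 and 12.04 in desiccation selected females (-0.32 ± 0.10, adjusted p = 0.999). The isocitrate dehydrogenase subunit Idh3g differed by -0.40 ± 0.15, muc (a pyruvate dehydrogenase subunit) by -0.33 ± 0.12 and SdhD (succinate dehydrogenase) by -0.21 ± 0.12. The list's mean on an array was 9.95, 10.09 and 10.04 in longevity and 10.11, 10.18 and 10.28 in desiccation selected females, so the groups did not overlap. This was not particular to the list. Means of the lists of Jun kinase signalling, of copper, zinc and iron handling, and of the eye did not overlap either. Over all tested probe sets the groups did not overlap in 9.73%. Without desiccation replicate 3 the median of the tricarboxylic acid cycle list was -0.09.

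Smaller shifts of the same sign were measured for sugar metabolism. In glycolysis and glycerol phosphate metabolism 9 of 12 genes were lower (median -0.10), among them Gapdh1 (-0.25 ± 0.10) and Eno (enolase, -0.16 ± 0.07), and Hex-C, a hexokinase, differed by 0.18 ± 0.14. In trehalose and glycogen metabolism 9 of 11 were lower (median -0.09), with Pgm1 at -0.21 ± 0.11, the trehalose transporter Tret1-1 at -0.31 ± 0.18 and glycogenin, Gyg, at 0.36 ± 0.21. Mpcp1, a phosphate carrier of the inner mitochondrial membrane, was among the 10 probe sets named as lower, with 9.15, 9.75 and 9.67 in longevity selected females, against 9.99, 10.12 and 10.55 in desiccation selected females (-0.69 ± 0.33). In the mitochondrial ribosome, 33 of 64 genes were higher and 31 lower, with a median of 0.00. Within that list mRpL39 read 8.29, 8.28 and 8.20, against 8.46, 8.54 and 8.50 (-0.24 ± 0.06, adjusted p = 0.867).

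**Figure D4:**
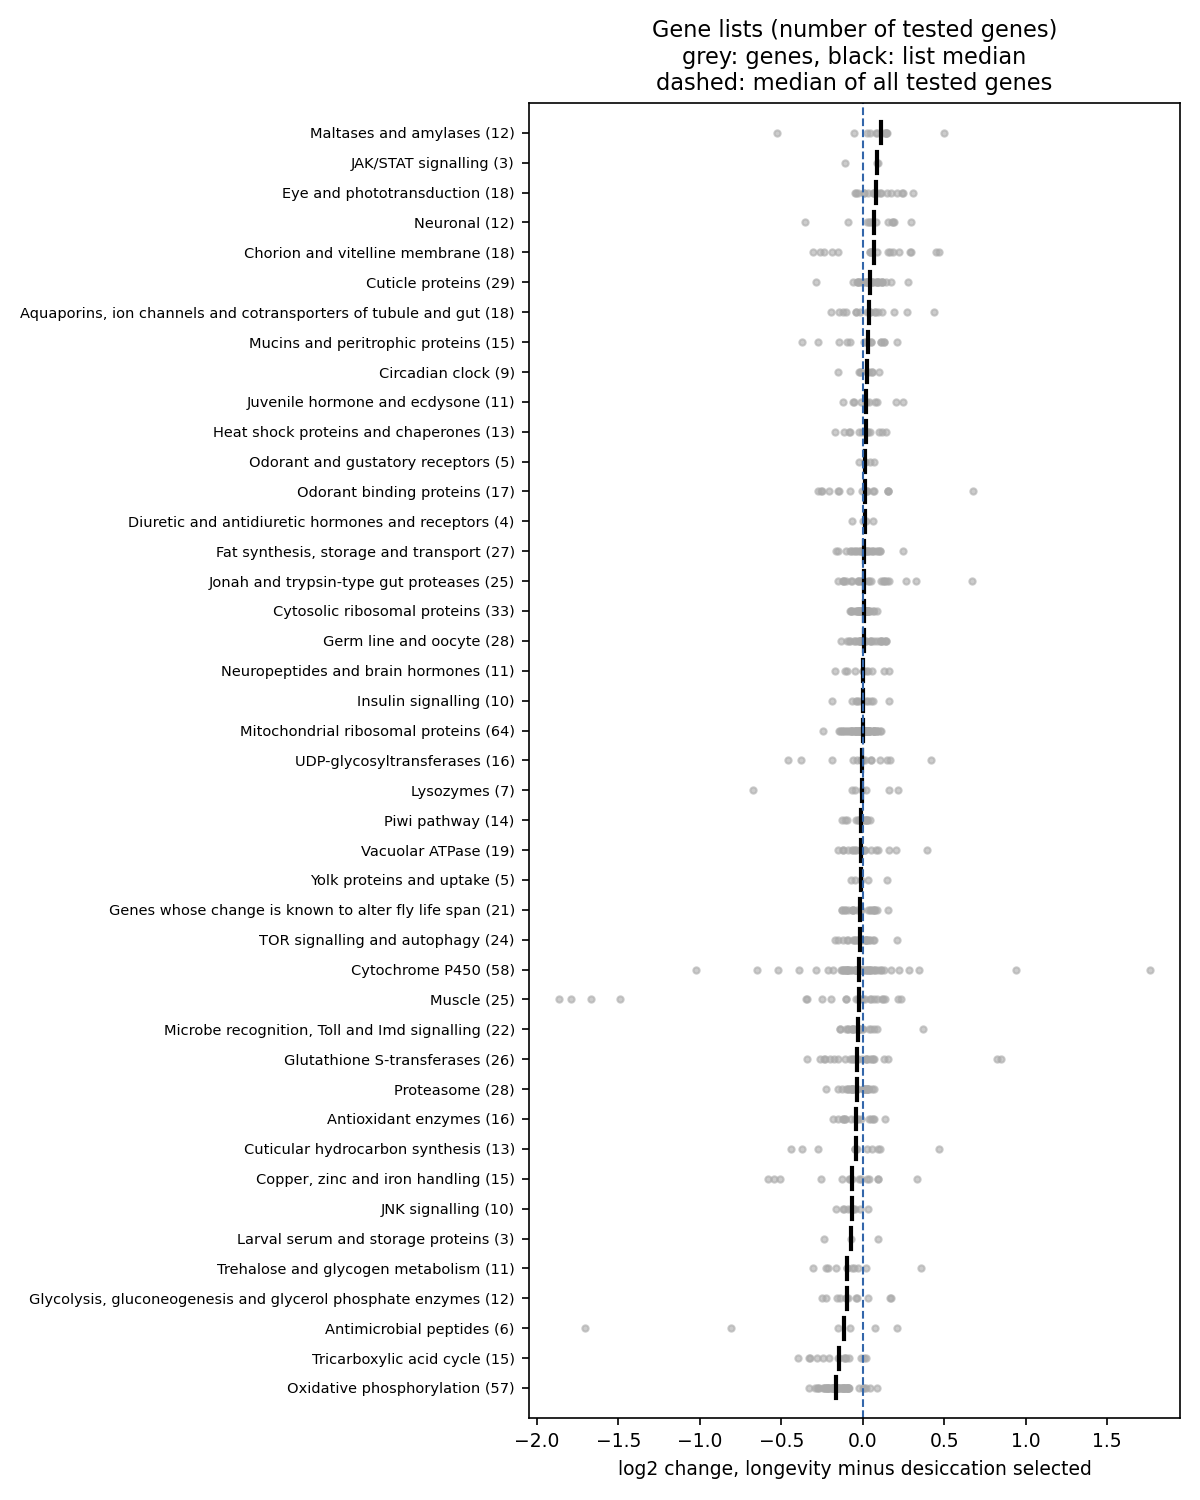
Difference between longevity and desiccation selected females (x axis, log2) for the tested genes of the 43 gene lists with at least 3 of them, grey points being genes, black bars list medians and the dashed line the median of all tested genes. Medians run from -0.16 (oxidative phosphorylation, bottom) to 0.11 (maltases and amylases, top), and no member of a list was called.

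Insulin signalling genes showed no call and no common sign. Of 22 listed genes 10 were tested, 5 were higher and 5 lower, and their median difference was 0.00. The insulin-like peptide Ilp2, made by brain neurosecretory cells, read 5.20, 5.21 and 5.31 in longevity selected females, against 5.02, 5.10 and 5.11 in desiccation selected females (0.16 ± 0.16, 95% confidence interval -0.17 to 0.49). The transcription factor foxo, which insulin signalling restrains, differed by -0.19 ± 0.12. The receptor InR differed by 0.02, its substrate chico by 0.03, the kinases Pdk1 and Akt by 0.05 and -0.02, the peptides Ilp7 and Ilp8 by -0.06 and -0.04, and ImpL2 and Sdr, secreted proteins that bind insulin-like peptides, by 0.06 and -0.04. Over the 10 genes the 95% confidence bounds lay between -0.43 and 0.49.

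The 21 genes whose mutation or overexpression is known to alter fly life span were all tested, and 12 were lower and 9 higher in longevity selected females, with a median of -0.02. Differences ran from -0.13 for the deacetylase gene Sirt2 to 0.15 for Indy, a citrate transporter, and the 95% confidence bounds from -0.36 to 0.40. For Sirt1 the difference was 0.09, for the receptor gene mth 0.07 and for cnc, a regulator of antioxidant genes, -0.13. In TOR signalling and autophagy 14 of 24 genes were lower (median -0.02), with REPTOR, a transcription factor that TOR restrains, at 0.21 ± 0.08 and the autophagy receptor ref(2)P at -0.17 ± 0.07. Of 16 antioxidant enzyme genes 11 were lower (median -0.04), and of 10 genes of Jun kinase signalling 9 were lower (median -0.06), with kay (Fos) at -0.17 ± 0.16 and Jra (Jun) at -0.12 ± 0.07. Heat shock proteins and chaperones had a median of 0.02, with Hsp60A, a mitochondrial chaperonin, at 0.14 ± 0.06.

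No gene of water and ion balance was called. Of 11 diuretic and antidiuretic hormones and receptors 4 were tested, and they differed by -0.07 (the leucokinin receptor Lkr), 0.07 (ion transport peptide, ITP), 0.02 (Dh44) and 0.00 (Capa), with 95% confidence bounds between -0.22 and 0.25. Among 18 aquaporins, channels and cotransporters of tubule and gut, 11 were higher and 7 lower (median 0.04). The chloride channel gene pHCl-2 had the smallest p of them, with 5.07, 5.35 and 5.22 in longevity selected females, against 4.64, 5.05 and 4.64 in desiccation selected females (0.43 ± 0.12, adjusted p = 0.999), and its groups did not overlap. The aquaglyceroporin gene Eglp2 differed by 0.19 ± 0.11 and nrv2, a sodium pump subunit, by -0.19 ± 0.11. The 19 genes of the vacuolar ATPase, the proton pump that drives tubule secretion, split 9 higher to 10 lower, with a median of -0.01.

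Cuticular hydrocarbon synthesis showed both signs. Of 13 genes 8 were lower and 5 higher (median -0.04), with the desaturase genes Fad2 and Desat2 at -0.37 ± 0.18 and 0.47 ± 0.24, and eloF, an elongase, at -0.28 ± 0.19. Of 29 cuticle protein genes 21 were higher (median 0.05) and none was called.

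No reproductive gene of the lists was called. The yolk list of 5 genes had a median of -0.01, the 18 chorion and vitelline membrane genes of the eggshell a median of 0.07 with 13 higher, and the 28 germ line and oocyte genes split 14 to 14 with a median of 0.01. Without longevity replicate 3 the eggshell median was 0.00. In juvenile hormone and ecdysone signalling, the nuclear receptor gene Hr39 read 7.25, 7.18 and 7.21 in longevity selected females, against 6.95, 7.12 and 6.96 in desiccation selected females (0.21 ± 0.07, adjusted p = 0.999), and the other 18 arrays reached 7.15 at most. In the same list usp, the ecdysone receptor's heterodimer partner, differed by 0.25 ± 0.12.

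Most listed genes of eye and neurons had higher means in longevity selected females, with no call. Of 18 eye and phototransduction genes 15 were higher (median 0.08), and of 12 neuronal genes 10 were higher (median 0.07), where 49.8% of all genes were higher. The neuronal gene futsch, a microtubule-associated protein, read 4.88, 4.92 and 4.88, against 4.50, 4.61 and 4.69 in desiccation selected females (0.29 ± 0.12, adjusted p = 0.999). The eye median was 0.04 without desiccation replicate 3, and the neuronal one 0.11 without longevity replicate 1. Relative to the mean of the other 6 groups, the eye median was -0.04 in longevity and -0.11 in desiccation selected females. The neuronal median was 0.04 in longevity and -0.09 in desiccation selected females on the same footing. For digestion, 10 of 12 maltase and amylase genes were higher (median 0.11), with Amy-d at 0.50 ± 0.20 and Mal-B2 at -0.53 ± 0.24, and without desiccation replicate 1 the median was 0.02. The 25 gut proteases had a median of 0.01, which ran from -0.08 without longevity replicate 3 to 0.13 without longevity replicate 1.

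The last named probe sets lower in longevity selected females belong to other functions. Hml, the hemolectin of blood cells that takes part in clotting, read 6.02, 4.76 and 5.84 in longevity selected females, against 6.52, 6.22 and 6.12 in desiccation selected females (-0.75 ± 0.31), and the difference was -0.36 without longevity replicate 2. Sgp read 7.79, 7.61 and 7.87, against 8.61, 8.36 and 8.70 (-0.80 ± 0.32). CR43790, CG15820 and CG12998 differed by -0.60 ± 0.23, -0.62 ± 0.27 and -0.57 ± 0.29, and CG12998 by -0.38 without desiccation replicate 3. Over the 10 probe sets named as lower, which were chosen for this difference, longevity had the lowest of the 8 group means in 8 and desiccation the highest in 3.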

How the data were processed

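The values are deposited as log2, as read from their range of -0.18 to 14.95, and were made by the authors from Affymetrix arrays with GCRMA (background correction, normalization and probe set summary), per the submitters' processing notes, which give no version. Nothing was added to them. Of 14010 probe sets, 44 controls were left out. Of the 9023 tested, 8068 name 1 gene, 222 several and 733 none in the platform annotation, and 8049 symbols were updated through the RefSeq gene table of the Release 6 plus ISO1 MT assembly.

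With limma 3.58.1 (R 4.3.3), means of 8 groups were fitted to 24 arrays by lmFit and eBayes (median residual SD 0.12, degrees of freedom 16 residual and 3.56 prior), and p-values were given Benjamini-Hochberg adjustment over the 9023 probe sets. P-values are two-sided. The script was tested on simulated data. Array number, 3 per group, limits the precision.

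Named were called probe sets, then up to 10 of smallest p per direction with separate groups, a single gene and a difference of at least 0.5, then up to 4 members of smallest p per list and every member of the insulin, life span, water hormone and Turandot lists. In lists a gene is its brightest probe set, and 43 of 46 lists had at least 3 tested genes. The members and lists were chosen with earlier results of these data known, and lists are described without a test. One probe set that the rule named is not reported here.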

Additional observations from a re-analysis of the deposited data

Results flagged for a closer look

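The egh probe set was the 1 result whose difference between the regimes passed a test of that difference. Relative to the mean of the other 6 groups, longevity selected females were at 0.09 and desiccation selected females at -0.42, and the difference between them was 0.51 on the log2 scale (limma adjusted p = 0.00167, and 0.746 with the 6 arrays fitted alone), with the 3 longevity arrays at 10.13 to 10.14 and the 3 desiccation arrays at 9.50 to 9.72. The second probe set of the gene gave 0.05.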

How the results depend on the processing

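The called count of longevity against desiccation was 1 with array weights, trend and robust variance, median centring, quantile normalization, a filter at 6, no filter, and 1 probe set per gene. It was 2 with the replicate block (egh, and CG2926 at an adjusted p of 0.0263), and 0 when the 6 arrays were fitted alone (limma, smallest adjusted p 0.746, with 441 under 0.05 before adjustment), where fewer arrays estimate the spread. Leaving out 1 line gave 1 to 2 calls, with CG2926 added without desiccation replicate 1 (0.78) and GstE3 without desiccation replicate 3 (1.23, adjusted p = 0.0275). The egh probe set was called in 14 of 15 alternatives, at 0.45 to 0.56. All 20 named genes kept their direction in every alternative in which they were tested. Leaving out 1 line could not have reversed it, since these genes were chosen for groups that do not overlap. Alternatives that change only the filter or the variance estimate leave the difference itself unchanged. Longevity against the other 6 groups gave 0 to 1 calls without 1 line, the call being polyph without longevity replicate 3. Desiccation against the other 6 groups gave 4 calls with a filter at 6, 6 with quantile normalization, 36 with array weights (6 higher, 30 lower), 4 with trend and robust variance, 6 with the replicate block, and 2 to 5 without 1 line, and the cause was not tested. Line numbers were not taken as pairs, since the labels do not tie them. Deviations of same-numbered longevity and desiccation lines correlated at 0.01, 0.34 and 0.21 (other pairs -0.34 to 0.12). Deviations from a group mean cancel within the group, so same-numbered and other pairs are not independent. The values therefore cannot decide whether line numbers pair the arrays. Longevity replicate 1 correlated best with desiccation replicate 2. These correlations covered only the 2 regimes. For Act88F, fln and Strn-Mlck, replicate 1 was the lowest of its group in all groups but heat and cold selected. With the replicate block, 421 probe sets had an unadjusted limma p under 0.05, against 356 without it. Whether line number marks an effect shared over the 8 groups was not tested. The 3 lines per group limit the precision.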

Other observations

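The antimicrobial peptide genes Mtk and DptB varied widely between lines of both regimes. Mtk (metchnikowin, an antifungal peptide) read 4.41, 5.36 and 10.66 in longevity selected females, against 10.29, 5.94 and 9.31 in desiccation selected females, a difference of -1.71 ± 1.76 (SE) with a 95% confidence interval of -5.37 to 1.96. DptB (diptericin B) read 4.74, 4.76 and 9.46, against 8.87, 4.90 and 7.62. The same 3 arrays, longevity replicate 3 and desiccation replicates 1 and 3, were the high ones in both. Drs (drosomycin) lay within 11.22 to 11.67 in longevity and 11.53 to 11.57 in desiccation selected females. The median of the 6 tested peptide genes was -0.12 and ran from -0.22 without desiccation replicate 2 to 0.11 without desiccation replicate 1.

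The larval storage protein gene Lsp2 read 9.56, 8.89 and 6.87 in longevity selected females, against 8.16, 8.56 and 8.32 in desiccation selected females (0.09, 95% confidence interval -1.53 to 1.71). Fst (Frost, a cold-induced gene), the 1 tested gene of the list of Turandot and related stress genes, read 7.72, 6.92 and 7.77, against 7.39, 6.14 and 8.69 (0.06, 95% confidence interval -1.17 to 1.29). The gene polyph, chosen after its values were seen, read 5.71, 4.77 and 3.36 in longevity selected females, against 2.90, 3.10 and 4.24 in desiccation selected females (1.20 ± 0.40, adjusted p = 0.999), and the call of longevity against the other 6 groups arose without the third longevity line (1.77, adjusted p = 0.0185).

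Probe sets whose identifiers end in _s_at were 136 of those tested (1.51%), 15 of the 356 at an unadjusted p under 0.05 (4.21%) and 4 of the 10 named as higher in longevity selected females, a count made after the values were seen. Where 3 of those 4 genes (egh, CG2926 and apolpp) had another tested probe set, it differed by 0.05, -0.04 and 0.07.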
